A study of Homo sapiens with 12 samples.

Results

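The voltage-gated and potassium channel genes are the rows of the count table whose symbol begins with KCN, SCN or CACN in the pattern of a numbered channel subunit, which takes in potassium channels and their partners, voltage-gated sodium channels and voltage-gated calcium channels. The rule found 70 of the 20771 genes in the table, all of them protein-coding, and 67 of the 70 had more than 3 counts in some 0 h library. The exceptions were KCNK18, KCNN4 and SCN3A. By role, 22 encode pore-forming voltage-gated potassium (Kv) subunits, 5 calcium- or sodium-activated potassium channels, 4 inward rectifiers, 6 two-pore-domain channels and 13 potassium channel auxiliary subunits. A further 7 encode pore-forming sodium channel (Nav) subunits and 1 a sodium channel beta subunit, while the calcium channel (Cav) genes comprise 4 alpha1, 2 alpha2delta, 4 beta and 2 gamma subunits.

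RNA was sequenced from EW8 and TC71, cell lines derived from Ewing sarcoma, a bone and soft tissue cancer driven by EWS-FLI1 or a related fusion. Both carried a CRISPR/Cas9 knockout of RRM1, which encodes the large subunit of ribonucleotide reductase, together with a doxycycline-inducible, codon-optimized RRM1 transgene (Lenti-X-Tet-One), and were grown as single-cell clones in DMEM with FBS. The libraries labelled 0 h came from cells in doxycycline and those labelled 48 h from cells kept without it for 48 h, with 3 libraries for each line and time and 12 in all. The comparisons asked which channel genes changed after removal of doxycycline in each line, in which the lines differed in that change, and in which they already differed at 0 h.

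Ion channels let potassium, sodium or calcium cross the membrane down their gradients. Potassium channels hold the resting potential and end action potentials, sodium channels start them, and calcium channels turn a change in voltage into calcium entry that can reach enzymes and transcription. They are best known in nerve and muscle, where auxiliary subunits set how many channels reach the surface and how fast they open and close, but many dividing and tumor cells also transcribe some of them.

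Libraries held between 18468485 and 35698991 counts. The RRM1 row rose in every 48 h library (0 h: 214, 166 and 317 counts in EW8 and 422, 316 and 418 in TC71; 48 h: 1201, 1449 and 1514 in EW8 and 674, 707 and 778 in TC71). Where reads of the codon-optimized transgene were assigned is not given in the sources used here, so this row is no check of the labels. All 10 Ewing sarcoma markers on a list chosen for this check were present, with a summed level of 2240 to 2630 counts per 1000000 (CPM) in every library. CCND1 made up the largest part, with means of 1390 and 1500 CPM in EW8 at 0 h and 48 h and 1100 and 1240 CPM in TC71. Single markers moved: in EW8, BCL11B went from 86.6 to 40.1 CPM and PAPPA from 34.2 to 83.2 CPM. In TC71 they went from 48.1 to 25.0 and from 13.8 to 16.5 CPM. The single epithelial, leukocyte and endothelial markers with a row, EPCAM, PTPRC and CDH5, stayed at or under 1.60 CPM, and no muscle marker had a row. Among 4 neuronal markers the sum was 220 to 238 CPM in EW8 at 0 h and 251 to 264 CPM at 48 h, and 253 to 273 and then 257 to 265 CPM in TC71, carried by SYT1 and SLC17A7, while RBFOX3 and SNAP25 were near 0. The sum of 3 fibroblast markers (DCN, LUM and COL1A1) moved with time in both lines, from 28.6 to 30.6 CPM at 0 h to 62.6 to 69.3 CPM at 48 h in EW8 and from 36.3 to 39.8 to 60.4 to 63.2 CPM in TC71; its part in the results was not tested. In bulk RNA, fewer cells with a transcript and less of it per cell cannot be told apart. The labels do not say whether replicate libraries came from separate cultures, so the p-values measure the spread between these libraries alone.

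At 0 h the channel RNA of both lines was dominated by 2 small auxiliary subunits of Kv channels. KCNE4, which inhibits several Kv channels, had 5384, 4044 and 7827 counts in the EW8 0 h libraries and 5289, 3806 and 4742 in those of TC71. KCNE3, which partners KCNQ1 in epithelia, had 4050, 3065 and 6346 counts in EW8 and 6351, 4829 and 5812 in TC71. On the scale of CPM per kb of annotated exon, which allows levels to be compared between genes, KCNE4 stood at 62.8 in EW8 and 51.6 in TC71 and KCNE3 at 50.6 and 66.1. The next gene, CACNA2D1, the alpha2delta subunit that carries calcium channels to the surface, was at 6.30 and 6.37 CPM per kb, and its libraries in the 2 lines overlapped. KCNE4 and KCNE3 together with CACNA2D1 and KCNQ5 made up 74.6% of all channel counts in EW8 at 0 h and 72.0% in TC71. Exon length is that of all annotated isoforms merged, so genes with long rare isoforms read low on this scale.

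Within the pore-forming classes the levels at 0 h were far lower. Among Kv subunits EW8 had most of KCNQ5, an M-current channel (3.47 CPM per kb), followed by KCNF1, a silent modifier of Kv2 channels (1.93), and KCNH7, an ERG-type channel (1.87), while TC71 had most of KCNH3, an ELK-type channel (3.80), followed by KCNF1 (2.94) and KCNQ5 (2.63). KCNN1, a small-conductance calcium-activated channel, led its class in both lines at 2.30 and 4.58 CPM per kb, ahead of the sodium-activated KCNT2 (0.795 and 0.556). Of the inward rectifiers KCNJ14 was highest (0.788 and 0.331), and of the two-pore-domain channels KCNK7 in EW8 (0.131, SD 0.0973) and KCNK13 in TC71 (0.823, SD 0.112). Neither was separated from KCNK3, at 0.0612 (SD 0.0438) in EW8 and 0.796 (SD 0.189) in TC71, and KCNK7 in EW8 rested on 7, 5 and 1 counts. SCN9A, the peripheral nerve sodium channel, was the highest Nav subunit in both lines (0.782 and 0.554), and CACNA1I, a low-voltage-activated T-type channel, the highest Cav alpha1 subunit (0.452 and 0.609). KCNAB3, a Kv beta subunit, came after KCNE3 and KCNE4 among the auxiliary subunits (3.56 and 4.65), and CACNB3, which chaperones Cav alpha1 subunits, led the Cav beta genes at 1.19 and 1.02 CPM per kb. The plot of 0 h levels shows most genes near the diagonal and KCNE3 and KCNE4 apart at the top.

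**Figure D1:**
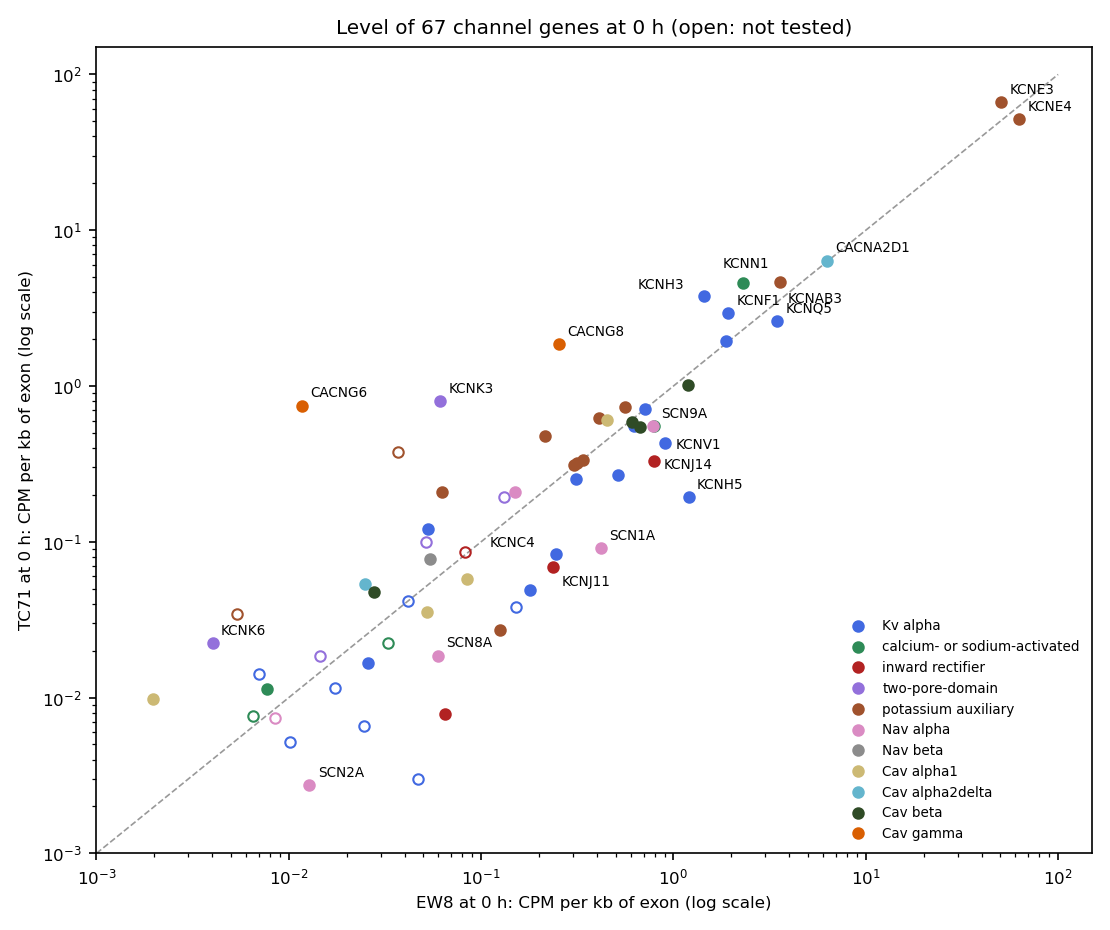
Mean level of 67 channel genes at 0 h in EW8 (x axis) and TC71 (y axis), both in CPM per kb of annotated exon on log scales, with colors for the classes, filled points for genes tested, open points for genes too low to test, and a dashed line of equality. KCNK13 had no counts in EW8 at 0 h and is not drawn. KCNE4 (62.8 and 51.6) and KCNE3 (50.6 and 66.1) lie far above the rest, CACNG6, KCNK3 and CACNG8 lie above the line, and KCNH5, SCN1A and SCN2A below it.

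Of the 70 genes, 54 had enough counts to be tested and the other 16, among them KCND3, KCNN4, KCNQ3 and SCN3A, never exceeded 15 counts in a library. Tests were quasi-likelihood tests of edgeR over all genes, with Benjamini-Hochberg adjustment over all genes tested, and a call needed both an adjusted p under 0.05 and a more than 2-fold difference. Between the lines at 0 h, 12 of the 54 channel genes were called higher in EW8 (22.2%, against 4.77% of all genes tested) and 11 were called lower (20.4%, against 11.9%). The median difference was -0.01 on the log2 scale for the channel genes, also when genes with no more than 3 counts in every library of the lower line are set to their bound, and -0.01 for all genes.

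Higher in EW8 at 0 h were KCNH5, an EAG-type Kv channel, and several Nav subunits. KCNH5 had 375, 244 and 459 counts in EW8 against 65, 51 and 54 in TC71, or 14.8 ± 1.41 CPM against 2.39 ± 0.137 (SD, n = 3), and the groups did not overlap. SCN1A, a sodium channel of central neurons, had 187, 141 and 252 counts against 46, 38 and 39, or 7.98 ± 0.264 against 1.73 ± 0.126 CPM. Both differences were far larger than the spread between replicates. SCN8A, another channel of the central axon, was 3.01-fold higher in EW8 (log2 1.59, SE 0.33, adjusted p = 6.95e-05). SCN2A held 5, 7 and 10 counts in EW8 and 2, 0 and 3 in TC71, a ratio of 4.3 with an exact 95% interval of 1.59 to 14.5 that covers counting error only.

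Potassium channels of several classes joined them. KCNC4, a fast Shaw-type Kv subunit, had 131, 126 and 204 counts in EW8 and 68, 42 and 48 in TC71 (log2 1.52, SE 0.15, adjusted p = 4.43e-11), and the libraries did not overlap once scaled to depth. Inward rectifiers were among them, where KCNJ3 and KCNJ11 had enough counts for the test through EW8 and the fourth of the class, KCNJ4, had too few in both lines, so no count of the class is read. KCNJ11, the pore of the ATP-sensitive channel, was 3.30-fold higher (adjusted p = 6.69e-05), KCNJ14 2.34-fold (adjusted p = 1.09e-07), and KCNJ3, a G protein-gated channel, had 22 counts in all in EW8 and 3 in TC71, a ratio of 7.17 (exact 95% interval 2.15 to 37.4, counting error only). KCNV1, an electrically silent modifier of Kv channels, was 2.08-fold higher, close to the fold threshold, and KCNS3 and KCNIP1 were called at levels under 1 CPM.

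Higher in TC71 at 0 h were two-pore-domain and Cav gamma genes. KCNK13, KCNK6 and CACNG6 had enough counts for the test through TC71. Of the other two-pore-domain genes KCNK3 alone was tested, so no count of these classes is read. KCNK13, which carries a leak current, had no counts in the 3 EW8 libraries and 44, 38 and 52 in TC71, at least 14.3-fold more when EW8 is placed at 3 counts per library. KCNK3, an acid-sensitive leak channel, had 15, 2 and 12 counts in EW8 and 121, 82 and 151 in TC71 (log2 -3.62, SE 0.30, adjusted p = 8.15e-10). No library of one line reached the other for either gene. CACNG6 and its neighbor CACNG8 lie next to each other on chromosome 19, CACNG8 from 53962937 to 53990215 and CACNG6 from 53991637 to 54012666, both on the + strand of GRCh38. CACNG6, a relative of the gamma subunit of muscle calcium channels, had 0, 1 and 1 counts in EW8 and 48, 46 and 38 in TC71, a ratio of 67.5 (exact 95% interval 18.3 to 564, counting error only), and CACNG8, better known as a partner of AMPA receptors, had 53, 41 and 67 against 405, 346 and 421 counts (log2 -2.89, SE 0.13, adjusted p = 3.26e-20). KCNH3, KCNIP2, KCNIP3, KCNA7, KCNK6 and CACNA1A were also lower in EW8, with KCNH3 at 2.65-fold and KCNK6 at 2 and 10 counts in all.

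After 48 h without doxycycline, about as many channel genes were called in EW8 as were not, nearly all of them upward. In EW8, 25 of 54 rose (46.3%, against 13.9% of all genes tested) and 2 fell (3.70%, against 3.35%). The median change was 0.75 on the log2 scale, or 0.74 with the 3 genes too low at 0 h for a firm fold set to their bound, against 0.03 for all genes. By the adjusted p alone, 33 were higher (background 37.0%) and 7 lower (background 31.6%), and the libraries of the 2 times did not overlap for 39 genes (72.2%, against 71.1% of all genes tested). Summed over all 70 genes, the channel level went from 690 ± 11.6 to 1300 ± 25.6 CPM (SD, n = 3), and without KCNE3 and KCNE4 from 272 ± 3.80 to 414 ± 11.7 CPM.

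In TC71, 5 of 54 rose (9.26%, against 3.26% of all genes tested) and 1 fell (1.85%, against 0.854%), 6 of 54 in either direction (11.1%, against 4.12%), and in these 6 the libraries of the 2 times did not overlap (background 3.95%). Libraries did not overlap for 25 genes whether called or not (46.3%, against 49.6%). The median change was 0.22, against -0.00 for all genes, and 19 were higher and 4 lower by the adjusted p alone (backgrounds 22.9% and 19.2%). The summed channel level was 721 ± 6.42 CPM at 0 h and 995 ± 22.2 CPM at 48 h. The plot of changes in both lines shows most genes to the right of zero on the EW8 axis and close to zero on the TC71 axis. Over the whole table, genes with fewer counts were called higher in EW8 more often. Among genes averaging under 50 counts 25.8% rose, and 11 of the 25 channel genes of that band did; from 50 to under 500 counts 16.9% of all genes rose, and 13 of 24 channel genes. In TC71 2 of the 25 channel genes under 50 counts rose (all genes of that band: 7.29%), and 3 of the 24 from 50 to under 500 counts (all: 3.59%).

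**Figure D2:**
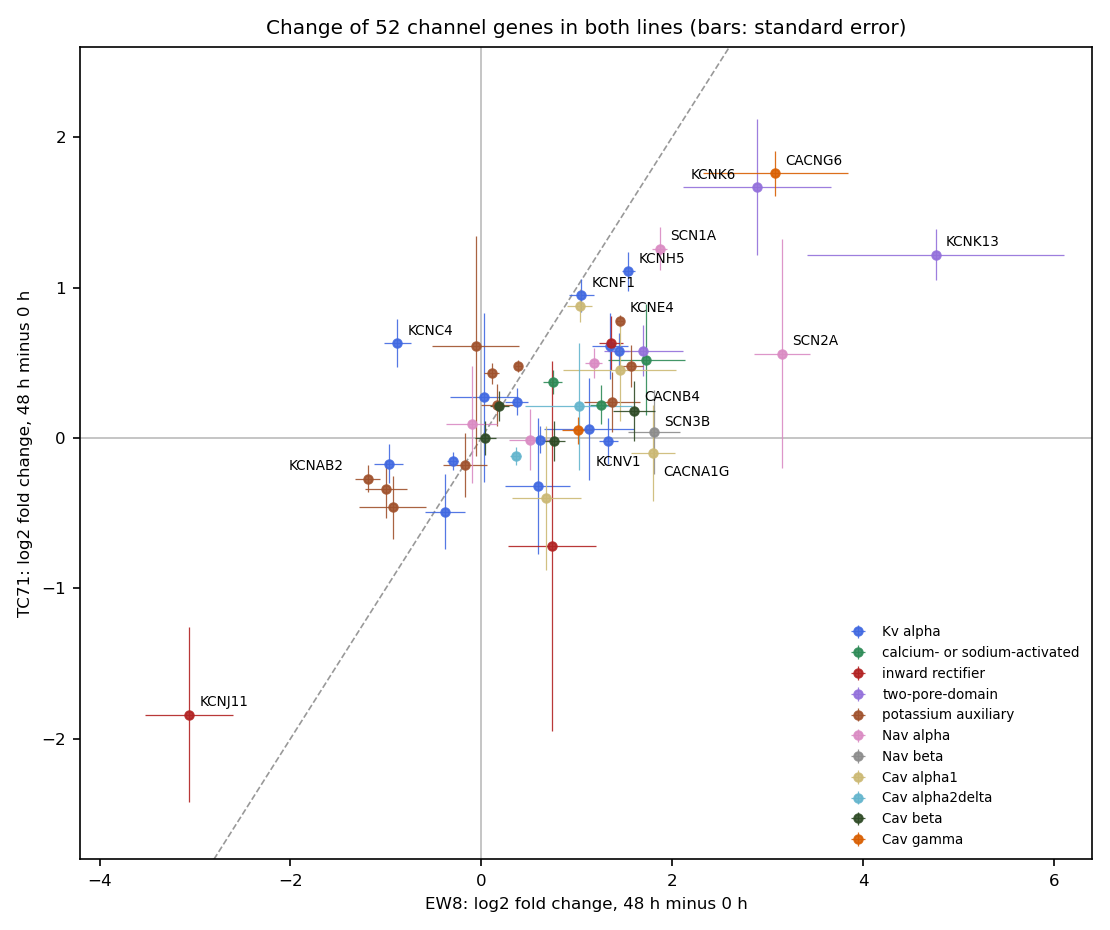
Log2 fold change from 0 h to 48 h of 52 of the channel genes tested, in EW8 (x axis) and TC71 (y axis), with standard errors as bars, colors for the classes and a dashed line of equal change. SCN1A, KCNH5, KCNK6, CACNG6 and KCNK13 lie to the upper right, KCNJ11 alone to the lower left, and KCNC4 has opposite signs in the lines. The fitted EW8 values of KCNK13, CACNG6 and KCNK6 rest on groups with at most 1 count per library at 0 h, so their position on the x axis is not firm.

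Among the sodium channels, SCN1A rose in both lines. It had 519, 592 and 611 counts in EW8 at 48 h against 187, 141 and 252 at 0 h, and 114, 102 and 136 in TC71 against 46, 38 and 39. Every 48 h library lay above every 0 h library of its line, by 1.87 in EW8 (SE 0.08, adjusted p = 2.68e-20) and 1.26 in TC71 (SE 0.14, adjusted p = 4.89e-09) on the log2 scale. SCN2A, the channel of immature and excitatory neurons, went from 5, 7 and 10 to 43, 54 and 64 counts in EW8 (log2 3.15, SE 0.29, adjusted p = 1.49e-11). It had enough counts for the test only through these EW8 48 h libraries, the group where it is high. The TC71 libraries held 2, 0 and 3 counts before and 4, 3 and 2 after removal of doxycycline, too few for a change to be read. SCN9A rose from 279, 171 and 351 to 405, 537 and 532 counts in EW8 (log2 1.18, SE 0.09, adjusted p = 1.32e-13) and was 1.41-fold higher in TC71, short of the fold threshold. SCN3B, a beta subunit that modulates channel gating, went from 17, 6 and 18 to 39 counts in each EW8 library (log2 1.81, SE 0.27, adjusted p = 3.32e-07), whereas TC71 was at 0.783 ± 0.293 CPM at 0 h and 0.828 ± 0.111 CPM at 48 h. SCN8A passed in neither line.

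The members with most neighbors were the Nav genes of chromosome 2, which lie in the order SCN3A, SCN2A, SCN1A, SCN9A and SCN7A between 165087526 and 166611482 on GRCh38. Their changes in EW8 were 3.15 for SCN2A, 1.87 for SCN1A, 1.18 for SCN9A and 0.51 for SCN7A (adjusted p = 0.0391) on the log2 scale, with SCN3A at 2 to 4 counts in every EW8 library and not tested. In TC71 they were 1.26 for SCN1A, 0.50 for SCN9A and -0.01 for SCN7A, of which SCN1A alone was called, while SCN2A had too few counts there for a change to be given. An annotated antisense gene, SCN1A-AS1, overlaps exons of both SCN1A and SCN9A, and an unnamed gene overlaps SCN2A on its own strand. How the authors assigned reads of overlapping genes is not given in the sources used here, so these counts may include reads of the neighbors. Over the whole set, 7 channel genes share exon bases with another gene on the same strand and 27 with one on the other strand.

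Of the Kv subunits, 6 of 15 tested rose in EW8 (all genes tested: 13.9%), none fell, and 1 rose in TC71 (all genes: 3.26%). KCNH5, the EAG-type channel, was called in both: counts went from 375, 244 and 459 to 747, 915 and 883 in EW8 (log2 1.54, SE 0.07, adjusted p = 5.31e-19) and from 65, 51 and 54 to 126, 140 and 175 in TC71 (log2 1.11, SE 0.13, adjusted p = 1.99e-08). The 48 h libraries were above the 0 h libraries in each line, and TC71 at 48 h was still below EW8 at 0 h. KCNV1 rose from 146, 102 and 215 to 290, 332 and 320 counts in EW8 (log2 1.33, SE 0.10, adjusted p = 1.61e-13) and was level in TC71 at 2.99 ± 0.482 and 2.96 ± 0.465 CPM. KCND1, an A-type channel, rose 2.71-fold in EW8 (adjusted p = 2.44e-13) and was 1.50-fold higher in TC71 by the adjusted p alone. KCNG3 and KCNF1, both silent modifiers, rose 2.56-fold and 2.08-fold in EW8, and KCNF1 was 1.93-fold higher in TC71, just under the fold threshold. KCNA7 was called in EW8 with overlapping libraries (5, 5 and 5 counts, then 11, 11 and 5). Below zero in EW8 were KCNH2, the ERG channel of the heart (log2 -0.97, SE 0.15), KCNC4 (-0.88, SE 0.14) and KCNQ5 (-0.30, SE 0.06), each passing the adjusted p but not the fold threshold.

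Of the calcium- and sodium-activated channels 2 of 3 tested rose in EW8 and none in TC71 (all genes tested: 13.9% and 3.26%). Among the two-pore-domain channels, KCNK13 had enough counts for the test through TC71. KCNK6 had enough only through the TC71 48 h libraries, the group where it is high. Apart from KCNK3 the others were not tested, so no count of this class is read. KCNMA1, the pore of the large-conductance BK channel, went from 12, 3 and 7 to 16, 19 and 25 counts (log2 1.73, SE 0.40, adjusted p = 2.55e-04), and KCNT2 rose 2.38-fold (adjusted p = 5.75e-12). In TC71 neither passed. KCNK3 rose from 15, 2 and 12 to 34, 17 and 26 counts in EW8 (log2 1.70, SE 0.41, adjusted p = 1.09e-03) and was 1.50-fold higher in TC71 (adjusted p = 7.72e-03). KCNK13 rose in TC71 from 44, 38 and 52 to 114, 104 and 156 counts (log2 1.22, SE 0.17, adjusted p = 5.46e-07). In EW8 it was called too, but its 48 h libraries held 5, 1 and 2 counts, a rise of at least 1.05-fold over the floor of 3 counts per library. KCNK6, a leak channel found in lysosomes, went from 4, 2 and 4 to 15, 11 and 13 counts in TC71 (log2 1.67, SE 0.45, adjusted p = 3.09e-03) and from 2 counts in all to 14 in EW8, a ratio of 8.64 (exact 95% interval 1.98 to 78.3, counting error only). KCNN1 was 1.68-fold higher in EW8 and 1.29-fold higher in TC71, both short of the fold threshold.

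The inward rectifier KCNJ11, which with the sulfonylurea receptor forms the ATP-sensitive potassium channel, was the only channel gene called lower in both lines, against 0.23% of all genes tested. Its counts went from 22, 23 and 40 to 0, 6 and 2 in EW8 and from 13, 5 and 7 to 2, 4 and 2 in TC71. The 0 h libraries were above the 48 h libraries in each line, and the log2 changes were -3.06 (SE 0.46, adjusted p = 4.47e-07) and -1.84 (SE 0.58, adjusted p = 0.0109). The call in TC71 rests on 13 or fewer counts per library and was lost without the first 0 h library (log2 -1.47, adjusted p = 0.102) or without the third 48 h library (log2 -1.58, adjusted p = 0.0561). KCNJ14 went the other way in EW8, from 77, 58 and 112 to 154, 168 and 193 counts (log2 1.36, SE 0.13, adjusted p = 1.27e-11), though it shares exon bases with its neighbor GRWD1.

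Of the 11 potassium channel auxiliary subunits tested, 3 rose and 1 fell in EW8 (all genes tested: 13.9% and 3.35%), and none was called in TC71. Their median change was 0.11 in EW8 and 0.24 in TC71, against 0.03 and -0.0 for all genes. KCNE4 gave the largest absolute shift of any channel gene, and KCNAB2 the second decrease called in EW8. KCNE4 rose from 5384, 4044 and 7827 to 11859, 12770 and 13597 counts in EW8, from 235 ± 3.55 to 645 ± 18.0 CPM (log2 1.45, SE 0.04, adjusted p = 1.44e-25). Its share of all channel counts went from 34.1% to 49.7%. In TC71 it was 1.72-fold higher (193 ± 5.76 to 332 ± 21.1 CPM, adjusted p = 6.79e-17), and its share was 26.8% and then 33.4%. KCNE3 was 1.31-fold higher in EW8 and 1.40-fold higher in TC71, with standard errors of 0.04 on the log2 scale and no overlap between the times, but under the fold threshold in both. KCNMB3, a beta subunit of the BK channel, rose from 64, 45 and 92 to 147, 161 and 174 counts in EW8 (log2 1.57, SE 0.13, adjusted p = 4.62e-13) and was 1.40-fold higher in TC71. KCNIP3, a calcium sensor that binds Kv4 channels, rose from 7, 10 and 20 to 27, 22 and 29 counts in EW8 (log2 1.37, SE 0.29, adjusted p = 8.81e-05). KCNAB2, a Kv beta subunit, fell from 157, 133 and 220 to 63, 52 and 66 counts in EW8 (log2 -1.19, SE 0.13, adjusted p = 3.68e-10), where no library of the 2 times overlapped, and was 1.21-fold lower in TC71 (adjusted p = 0.0171). KCNAB1, a relative, lay at the edge of the fold threshold in EW8 (57, 34 and 67 counts, then 18, 19 and 27) and was not called.

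**Figure D3:**
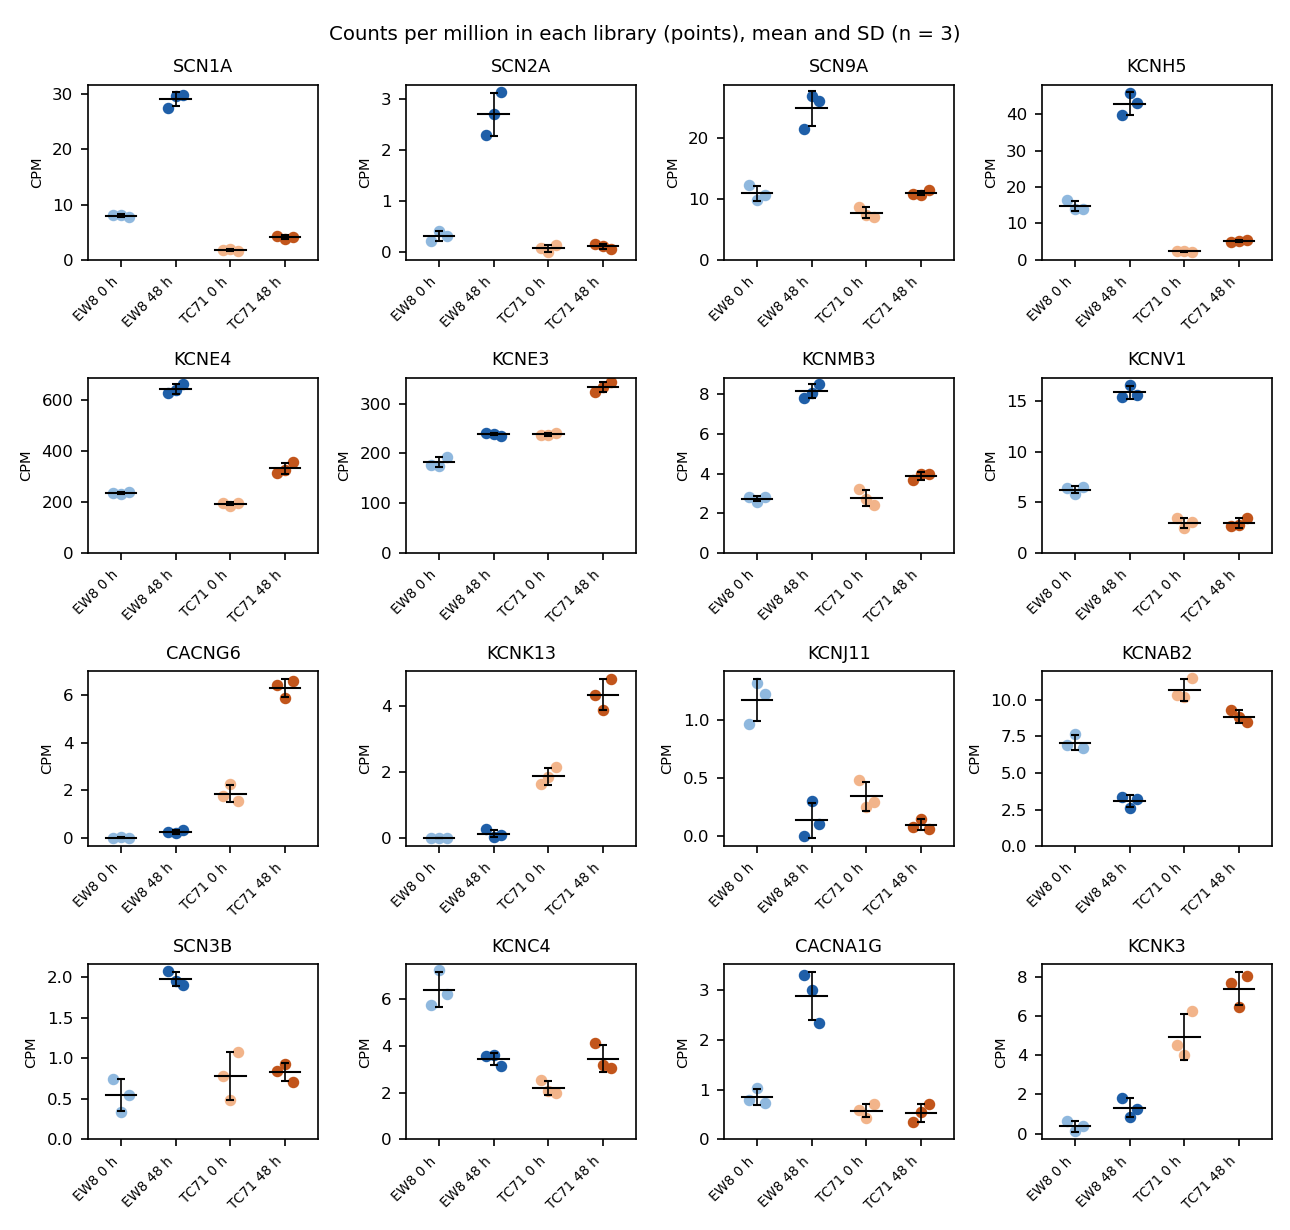
CPM of 16 channel genes in each library, with points for libraries, horizontal bars for the group mean and whiskers for the SD (n = 3), and a separate y axis that includes 0 for each gene. SCN1A, KCNH5 and KCNE4 are higher at 48 h in both lines, KCNJ11 is lower in both, SCN2A, SCN3B, KCNV1 and CACNA1G are higher at 48 h in EW8, and KCNC4 moves in opposite directions in the lines.

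Of the 12 calcium channel genes tested, 6 rose in EW8 (all genes tested: 13.9%) and 1 in TC71 (all genes: 3.26%), none fell, and the difference between the lines was called for CACNA1G and CACNB4. CACNA1G, a T-type alpha1 subunit, went from 18, 18 and 24 to 62, 60 and 48 counts there (log2 1.80, SE 0.23, adjusted p = 1.87e-08), with no overlap, and was at 0.580 ± 0.132 and 0.538 ± 0.185 CPM in TC71. The related T-type CACNA1I rose 2.04-fold in EW8 (adjusted p = 1.31e-08) and was 1.84-fold higher in TC71 (adjusted p = 1.22e-07). CACNA1A, the P/Q-type subunit of nerve terminals, was called in EW8 at 1, 1 and 5 counts against 4, 6 and 6. CACNB4, a brain beta subunit, rose from 28, 17 and 26 to 53, 62 and 61 counts in EW8 (log2 1.60, SE 0.22, adjusted p = 6.68e-08), and the other 3 beta genes were within 1.69-fold. CACNG6 rose in TC71 from 48, 46 and 38 to 168, 157 and 213 counts (log2 1.76, SE 0.15, adjusted p = 9.87e-12) and in EW8 from 2 to 16 counts in all, a ratio of 9.88 (exact 95% interval 2.32 to 88.5, counting error only). Its neighbor CACNG8 rose 2.02-fold in EW8 and was level in TC71 at 16.5 ± 1.24 and 17.1 ± 2.30 CPM. CACNA2D1 was 1.29-fold higher in EW8 by the adjusted p alone and did not pass in TC71.

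In both lines together, 5 channel genes were called higher (9.26%, against 2.79% of all genes tested): SCN1A, KCNH5, KCNK13, KCNK6 and CACNG6. The 2 lines share no library, but a single model with a shared filter held both. KCNK13, KCNK6 and CACNG6 entered the EW8 test through their TC71 counts and gave no EW8 value when each line was fitted alone. SCN1A and KCNH5 kept the call in both lines under that setting. None was called in opposite directions, as against 0.0182% of all genes tested. By the adjusted p alone, 2 had opposite signs, KCNC4 among them (3.70%, against 2.82% of all genes tested), 20 had the same sign (37.0%, against 31.9%), and 13 of the 54 passed in neither line (24.1%, against 24.0%).

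The difference between the responses was tested as an interaction, which uses the same 12 libraries as the comparisons above. The fitted change was more positive in EW8 for 11 genes (20.4%, against 7.28% of all genes tested) and more negative for 1 (1.85%, against 0.981%), 12 in either direction (22.2%, against 8.26%). KCNC4 gave the negative one: it went from 131, 126 and 204 to 67, 72 and 64 counts in EW8 and from 68, 42 and 48 to 108, 85 and 99 in TC71, a difference of -1.52 (SE 0.21, adjusted p = 3.21e-07). The 2 lines thus differed 2.86-fold at 0 h and stood at 3.43 ± 0.263 and 3.45 ± 0.584 CPM at 48 h. Among the genes with a more positive change in EW8 were SCN3B, CACNA1G, CACNB4, KCNV1, KCNMB3, KCNIP3, KCNT2 and KCNK3. SCN2A was also called with a positive fitted difference and is in the count. It had enough counts for the test only through its EW8 48 h libraries, where it is high, and too few in TC71 for a change to be read. KCNK13 was called with a positive fitted difference, but it had no counts in EW8 at 0 h, and its EW8 bound of at least 1.05-fold lies below its rise in TC71, so the direction of its difference is not established. Of these, KCNK3 (adjusted p = 0.0473), KCNK13 (adjusted p = 0.0348), SCN2A (adjusted p = 0.0286), KCNT2, KCNIP3 and KCNMB3 each lost the call without at least 1 single library. With the fold threshold inside edgeR's test, none of the 12 was called (all genes: 1.40%), 7 channel genes having an unadjusted p below 0.05 (all genes: 5.22%), while the DESeq2 Wald test at the usual thresholds called 11 (all genes: 7.08%). KCNE4 differed by 0.67 (SE 0.06, adjusted p = 1.46e-11) and SCN1A by 0.61 (SE 0.17, adjusted p = 3.20e-03), both under the fold threshold.

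The map of levels shows 52 of the tested genes in each library. Replicates of a group look alike in the brighter rows and vary most in the darkest ones.

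**Figure D4:**
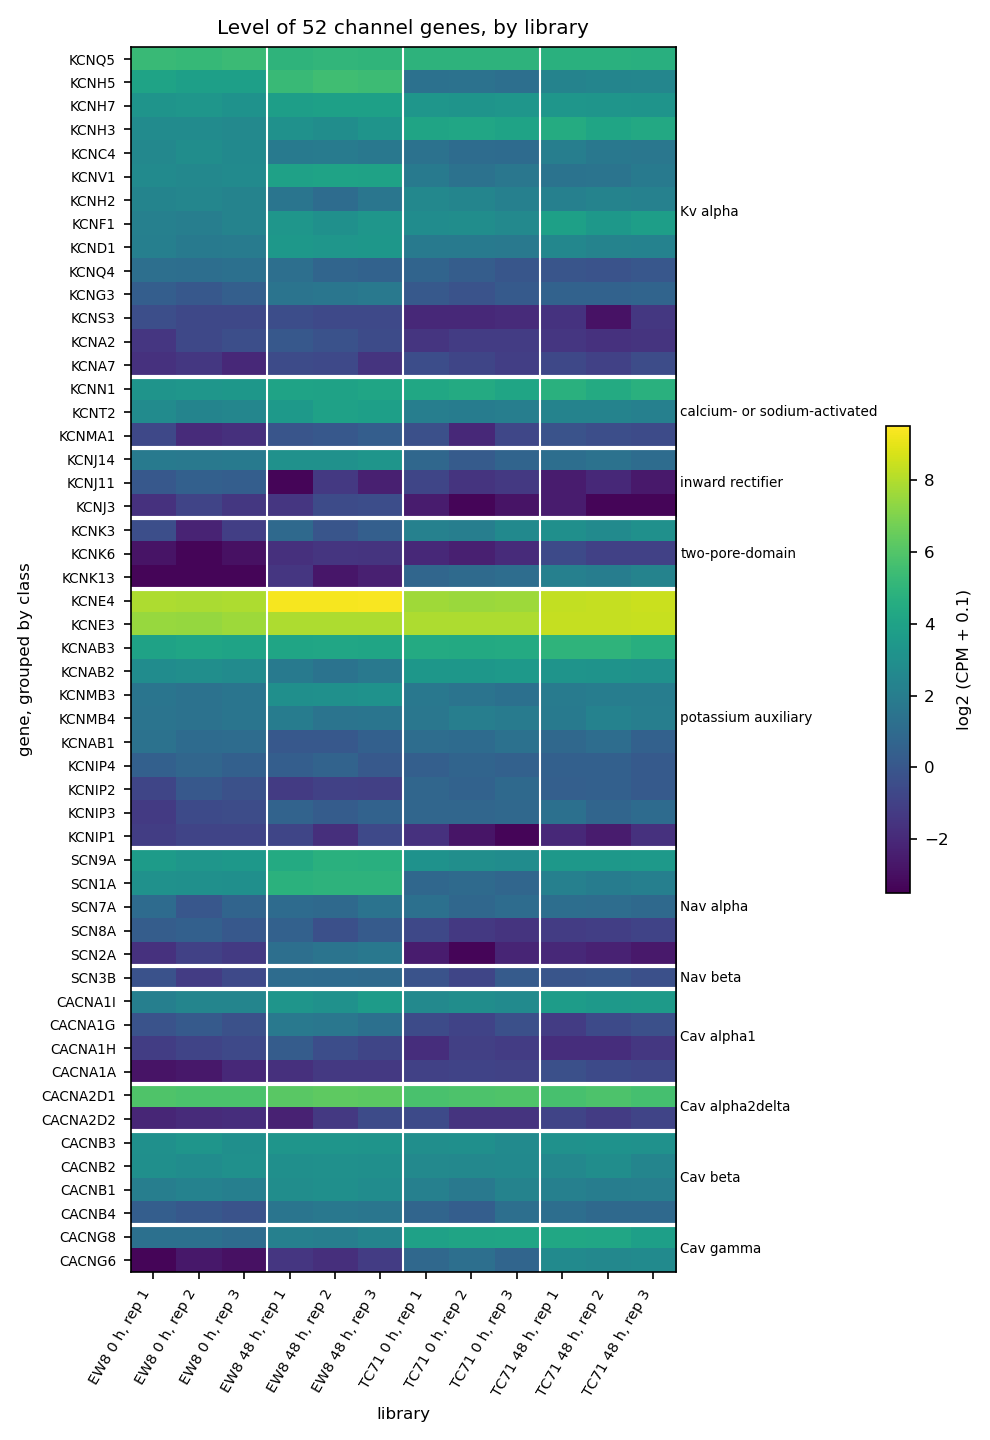
Level of 52 of the channel genes tested in the 12 libraries, as log2 of CPM plus 0.1, with genes in rows grouped by class and ordered by their EW8 0 h level, and libraries in columns. KCNE4 and KCNE3 are the brightest rows in every column, and KCNK13 and CACNG6 are dark in EW8 and brighter in TC71.

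Features that the rule did not use were compared next. Channel genes are long, with a median span of 80.8 kb among those tested against 26.4 kb for all genes tested. Among the 26 that span at least 100 kb, 11 rose in EW8 (all genes of that span: 13.3%) with a median of 0.68 (all: 0.13), and among the 28 shorter ones 14 rose (all: 14.0%) with a median of 0.89 (all: 0.01). In TC71 the counts were 3 of 26 (all: 3.08%) and 2 of 28 (all: 3.31%). By position, 14 of the 70 lie on chromosome 2 and 9 on chromosome 19.

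Promoter windows of RefSeq (GRCh38.p14), from 250 bases before to 50 after a transcript start, were given for 52 of the 70 genes, 88 windows in all. They were searched on both strands for TGACTCA, the core letters bound by AP-1, since AP-1 is the factor the study is about, for TGACGTC, from the cAMP response element, and for CAGCACC and GGACAGC, letters of the RE1 element of REST, a repressor of neuronal genes. TGACTCA was found in 3 windows (3.41%, against 4.95% of all windows and 3.54% of those of genes tested), TGACGTC in 1 (1.14%, against 3.45% and 4.82%), CAGCACC in 10 (11.4%, against 7.75% and 7.61%) and GGACAGC in 5 (5.68%, against 6.03% and 6.32%). The median GC content of the channel windows was 65.3%, against 64.3% for genes tested. The 250 bases before the start are printed for SCN1A and KCNH5, which were called in both lines and hold a match, and for KCNMB3 and KCNMA1, the others with the AP-1 letters. Capitals mark matches. TGAGTCA is TGACTCA, and GGTGCTG is CAGCACC, read from the opposite strand. Each is the window of 1 annotated start, and a gene may have others.
SCN1A (chr2:166128021-166128270, − strand): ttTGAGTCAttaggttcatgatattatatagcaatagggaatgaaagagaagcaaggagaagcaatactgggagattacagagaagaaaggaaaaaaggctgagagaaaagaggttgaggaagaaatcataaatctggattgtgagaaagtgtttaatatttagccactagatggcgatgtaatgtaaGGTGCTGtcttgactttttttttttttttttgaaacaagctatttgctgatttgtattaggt
KCNH5 (chr14:63045459-63045708, − strand): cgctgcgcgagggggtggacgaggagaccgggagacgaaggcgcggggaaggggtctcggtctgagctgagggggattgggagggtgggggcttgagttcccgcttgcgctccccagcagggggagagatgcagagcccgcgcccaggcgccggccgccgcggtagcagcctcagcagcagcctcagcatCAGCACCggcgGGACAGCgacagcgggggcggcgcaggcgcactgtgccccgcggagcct
KCNMB3 (chr3:179251115-179251364, − strand): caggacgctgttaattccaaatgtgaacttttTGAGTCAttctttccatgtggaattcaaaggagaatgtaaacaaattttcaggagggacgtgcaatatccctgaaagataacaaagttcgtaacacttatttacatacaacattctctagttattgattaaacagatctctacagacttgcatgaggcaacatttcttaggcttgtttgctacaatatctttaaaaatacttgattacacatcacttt
KCNMA1 (chr10:77350762-77351011, − strand): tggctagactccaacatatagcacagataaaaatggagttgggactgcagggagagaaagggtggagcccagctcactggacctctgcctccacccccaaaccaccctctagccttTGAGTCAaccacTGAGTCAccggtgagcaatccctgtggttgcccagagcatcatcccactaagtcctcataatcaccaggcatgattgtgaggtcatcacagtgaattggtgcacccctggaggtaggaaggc
In SCN1A the AP-1 letters begin 248 bases before the start and CAGCACC 62 before it. KCNH5 holds CAGCACC 60 and GGACAGC 49 bases before the start, in that order on the same strand. KCNMB3 has the AP-1 letters once, 218 bases before the start, and KCNMA1 has them at 134 and again at 122. A match is a description of the letters and not a site, and binding was not measured.

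Other genes of channel biology were read from 2 lists. Of 45 related channels (HCN, CNG, TRP, mucolipin, polycystin, two-pore, CatSper, proton and sodium leak channels), 24 had a row and 19 were tested, and 3 rose in EW8 (all genes tested: 13.9%), none fell, and 1 rose in TC71 (all genes: 3.26%), counts of the order of the background. Those in EW8 were TRPC1 (log2 1.69), a store- and receptor-operated channel, TRPM6 (1.95), a magnesium channel, and MCOLN3 (1.81), a lysosomal channel. Of 37 channel partners, such as Kv4 and KATP partners, fibroblast growth factor homologous factors, ankyrins, calmodulins and REST, 25 had a row and 23 were tested, and 2 rose and 1 fell in EW8 (all genes: 13.9% and 3.35%) and 1 rose in TC71 (all genes: 3.26%), no more than about the background. In EW8, GEM, a small GTPase that blocks calcium channels, rose by 2.31 and UNC79, a partner of the sodium leak channel, by 2.40, while KCNRG, a regulator of potassium channel assembly, changed by -1.42. In TC71, FGF12, which binds Nav channels, rose by 2.03. The median change of the related channels was 0.28 in EW8 and 0.23 in TC71, and that of the partners -0.09 and -0.07, against 0.75 and 0.22 for the channel genes themselves.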

How the data were processed

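Per the paper's methods and the submitters' processing notes, the authors isolated RNA with an RNeasy Plus kit, made stranded polyA libraries, used FastQC for read quality and STAR to align the paired-end reads to hg38. The deposited values are raw counts per gene, whole numbers with no normalization. The counting tool, its strand setting and the annotation are not given in the sources used here. Libraries held 18468485 to 35698991 counts.

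Groups came from the sample labels (3 libraries for each line and time). Genes were kept by filterByExpr of edgeR 4.0.16 in R 4.3.3 (minimum count 10, minimum total 15), which left 16515 of 20771. Scaling was by TMM, CPM used the same factors, and 1 robust quasi-likelihood model held all 4 groups. P-values were adjusted by Benjamini-Hochberg over all genes tested, and a call needed an adjusted p under 0.05 together with more than a 2-fold difference. The common biological coefficient of variation was 4.17%, and the procedure was tested on simulated data. A group with at most 3 counts in every library was treated as too low for a firm fold: against a group without counts a bound over 3 counts per library is given, otherwise a ratio of summed counts with an exact 95% interval (scipy 1.17.1). Coordinates and exon lengths are from GENCODE release 44, which matched all 70 channel genes, and promoter windows from RefSeq.

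Named in each line and direction were up to 12 called genes with the largest change, libraries that did not overlap and at least 20 counts on average in the higher group; those called in both lines; up to 8 in each direction for the interaction (smallest p) and for the 0 h comparison (largest change); and the 3 highest per kb in each class and line. Others were named after their values were seen, and a few genes that enter the fits and counts are not reported by name or drawn here. The channel genes, lists and motifs were chosen with earlier results of these data known. Alternatives were other scaling factors, DESeq2 1.42.0, other count filters, other thresholds, a fit that was not robust, each line fitted alone, a replicate block and leaving out each library. Figures were drawn with matplotlib 3.10.9.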

Additional observations from a re-analysis of the deposited data

Results flagged for a closer look

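The response to 48 h without doxycycline differed between EW8 and TC71 for 12 of 54 channel genes (22.2%, against 8.26% of all genes tested). The calls are by edgeR's test of the difference itself (EW8 change minus TC71 change, log2, Benjamini-Hochberg adjusted over all genes tested). With the fold threshold inside the test none of the 12 was called (all genes: 1.40%), 7 channel genes having an unadjusted p below 0.05 (all genes: 5.22%), and the DESeq2 Wald test called 11 at the usual thresholds (all genes: 7.08%). Among potassium channel pores the genes that differed included KCNV1 (1.35, adjusted p = 1.44e-07) and KCNT2 (1.03, adjusted p = 8.93e-06), with KCNC4 in the opposite direction (-1.52, adjusted p = 3.21e-07). Among auxiliary subunits they were KCNMB3 (1.08, adjusted p = 1.30e-05) and KCNIP3 (1.13, adjusted p = 8.19e-03). The sodium channel genes were SCN2A (2.59, adjusted p = 0.0286) and SCN3B (1.77, adjusted p = 3.52e-04). The size for SCN2A is not firm, since its TC71 libraries held 4 or fewer counts. SCN2A had enough counts for the test only through its EW8 48 h libraries, where it is high. Its call was lost without the first or the third TC71 0 h library or the third TC71 48 h library. Also on the list were the calcium channel genes CACNA1G (1.89, adjusted p = 2.20e-04) and CACNB4 (1.42, adjusted p = 1.65e-04). The leak channel KCNK3 (1.12, adjusted p = 0.0473) was called as well, but the call was lost under 11 alternatives, among them DESeq2 size factors, upper-quartile factors and leaving out each of 6 libraries (without the second EW8 0 h library it was 0.79, adjusted p = 0.147). KCNK13 was called too (fitted difference 3.54, adjusted p = 0.0348), but it had no counts in any EW8 library at 0 h, and its EW8 rise of at least 1.05-fold over the floor lies below its TC71 rise (log2 1.22), so that neither the size nor the direction of its difference is established. With 3 libraries a group, no test for outlying values within a group was run.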

How the results depend on the processing

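No named value changed sign under any alternative. Of 57 named values, 26 kept the call under every alternative that gave a value and 31 lost it under at least 1, most often with the fold threshold inside the test. The channel genes called were 27 in EW8, 6 in TC71, 12 for the difference in response and 23 between the lines at 0 h. Requiring at least 10 counts in every library left 33 channel genes and 16, 2, 6 and 9 calls (all genes: 11.4%, 1.76%, 5.54% and 10.4%). With the fold threshold inside the test the calls were 16, 1, 0 and 10 (all genes: 9.01%, 0.817%, 1.40% and 9.55%), and for the difference in response 7 channel genes then had an unadjusted p below 0.05 in edgeR (all genes: 5.22%), while the DESeq2 Wald test called 11 at the usual thresholds (all genes: 7.08%). With no fold threshold they were 40, 23, 27 and 37 of 54, shares close to those of all genes (68.6%, 42.1%, 48.1% and 65.7%). Total counts alone moved the median of all genes by over 0.1 in EW8 (from 0.03 to 0.16) and at 0 h (from -0.01 to -0.14), with 27 and 24 channel genes called, and from 0.04 to 0.12 for the difference in response, with 13 called. Leaving out 1 library gave 25 to 28 calls in EW8, 5 to 7 in TC71, 8 to 12 for the difference in response and 22 to 24 at 0 h. For the difference in response, KCNK3 lost its call without the second or the third EW8 0 h, the first or the third EW8 48 h, the third TC71 0 h or the first TC71 48 h library, KCNK13 without any EW8 0 h library or the first EW8 48 h library, SCN2A without the first or the third TC71 0 h or the third TC71 48 h library, KCNT2 without the second or the third EW8 0 h, the second EW8 48 h or the third TC71 48 h library, KCNIP3 without the first EW8 0 h or second TC71 48 h library, and KCNMB3 without the first TC71 0 h library. In EW8, CACNA1I, CACNG8 and KCNF1, at 2.02-fold to 2.08-fold, were no longer called without the third 48 h library, nor without the first 0 h library for CACNA1I, the third for CACNG8 and the first or the second for KCNF1. At 0 h KCNV1 lost its call without the second TC71 library, KCNIP2 lost its call without the first EW8 library and KCNK6 without the second or the third EW8 or the first or the third TC71 library. With DESeq2's Wald test KCNK13 (difference in response) and KCNK6 (0 h) were not called, nor was KCNK3 (difference in response) with DESeq2 or upper-quartile factors. KCNV1 (0 h) lost its call with upper-quartile factors and with total counts alone. CACNA1I and CACNG8 (EW8) lost theirs with upper-quartile factors, and CACNG8 also with each line fitted alone. Same-numbered libraries of the 2 times did not deviate together (correlations -0.138 to -0.0147), so the numbers do not pair them; with the replicate number as a block the calls were 27, 6, 12 and 23. Depth limits the 16 channel genes not tested and the folds of genes at or under 3 counts.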
